A study of Saccharomyces cerevisiae with 25 samples.

Results

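The genes described here encode the factors that assemble the ribosome and process its RNA in the budding yeast Saccharomyces cerevisiae. They were chosen by name: every gene called UTP, NOP, RRP, NSA or NOG followed by a number, together with IMP3, IMP4, NUG1, ERB1, BRX1, SPB4, MAK16, RLP7, CIC1, SOF1, KRR1 and DHR2, provided that it had a value in at least 20 of the 24 libraries without phosphate. Of 68 names that matched, 66 genes met this limit, out of 6650 named genes in the deposited table. IMP3 and DHR2 had 11 values each and were left out. All 66 were among the 4343 genes tested, and 58 of them had a value in every library without phosphate.

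The series followed a single time course through the removal of phosphate by RNA sequencing. All cells had the BY4741 background, carried YFP driven by the PHO84 promoter and overexpressed PHO90, a low-affinity phosphate transporter (pho84pr-YFP, pho90_OX), so no library here came from cells without the overexpression. The library of 0 min was made from cells in high-phosphate medium, and the other 24 from cells washed and moved to medium without phosphate, taken every 15 min up to 360 min. Each time point had 1 library. Consecutive libraries therefore stood in for replicates, in an early window (15 to 120 min), a middle window (135 to 240 min) and a late window (255 to 360 min) of 8 libraries each, and in 6 separate hours of 4 libraries each, so every p-value below measures the spread among neighbouring time points of 1 course.

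Values were deposited as log2 RPM, where RPM is reads per 1000000. Read numbers were worked out from them by taking the lowest value of each library as 15 reads. On this basis 93.6% (15 min) to 94.4% (345 min) of the values in a library were whole reads within 0.02. The totals in listed genes then lay between 450744 reads (15 min) and 2271193 reads (90 min) per library. HIS3, LEU2 and MET17, which are deleted or disrupted in BY4741, had no value in any of the 25 libraries, and URA3, also deleted there, had one in 2 of them. PHO90 ranged from 1636 RPM at 0 min to 5413 RPM at 315 min. Less RNA of a gene per cell and fewer cells that express it cannot be told apart in such libraries, and RPM is a share of the RNA sequenced, not an amount.

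Ribosomes are built in the nucleolus, where a long precursor RNA is cut, modified and folded while ribosomal proteins join it. The small subunit forms within the SSU processome, a very large particle that contains the U3 small nucleolar RNA (snoRNA) and the UtpA, UtpB and UtpC subcomplexes. The large subunit passes through a series of pre-60S particles, and the RNA exosome trims and degrades the spacer RNA. Growing yeast cells spend much of their transcription on this pathway, and its genes are known to be turned down together when nutrients fail or stress strikes. Many of their promoters carry the PAC motif, which the repressors Dot6 and Tod6 bind, and the RRPE motif, which Stb3 binds.

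Both motifs were common in front of these 66 genes. The core of PAC, GATGAG, was found on either strand between 250 bases before and 50 bases after the start of 56 of the 66 (84.8%), against 20.3% of 6021 promoters in the genome. The core of RRPE, AAAAATTT, was found in 53 of 66 (80.3%), against 14.1% of all promoters. Both cores were present in 46 of 66 (69.7%), against 5.61% of all. These shares were not particular to the members. Of 89 other ribosome assembly genes, from a list described below, 87.6% had the PAC core, 82.0% the RRPE core and 74.2% both. The longer form of PAC, GCGATGAG, which contains its core, occurred in 33 of 66. The stretches that follow belong to the 3 members with the lowest difference between the middle and early windows among those with a motif, and show how close together the matches lie. Each runs from 250 to 81 bases before the start of the reading frame, 5′ to 3′ on the strand of the gene, in the RefSeq sequence of build R64, at chrXIII:370598-370767 on the minus strand for ERB1, chrXIV:510290-510459 on the plus strand for NOP2 and chrV:414260-414429 on the minus strand for NSA2. Capitals mark the letters of PAC or RRPE, or of their reverse complements.
ERB1: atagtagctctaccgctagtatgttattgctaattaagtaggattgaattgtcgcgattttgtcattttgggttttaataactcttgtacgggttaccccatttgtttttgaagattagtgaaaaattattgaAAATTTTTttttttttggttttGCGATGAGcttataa
NOP2: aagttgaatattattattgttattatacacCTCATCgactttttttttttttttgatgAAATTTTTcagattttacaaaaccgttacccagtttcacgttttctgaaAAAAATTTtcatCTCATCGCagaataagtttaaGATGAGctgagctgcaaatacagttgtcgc
NSA2: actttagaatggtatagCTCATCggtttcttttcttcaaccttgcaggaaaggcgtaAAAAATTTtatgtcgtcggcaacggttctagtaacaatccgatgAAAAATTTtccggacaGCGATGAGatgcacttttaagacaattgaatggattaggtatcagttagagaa
In the ERB1 stretch the longer PAC form began 95 bases before the start and an RRPE core lay on the other strand 117 bases before it. NOP2 had 3 PAC cores and 2 RRPE cores, and NSA2 had 2 of each. A match is a string of letters and not a shown binding site.

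As a group the 66 genes did not follow a single slope through the course. They stood high at 0 min, dropped at 15 min, recovered partly, and declined from 135 min to their lowest median level at 210 min. They then came back in separate bursts at 240 to 255 min and at 345 to 360 min. Their share of all reads was 1.45% at 0 min and 0.863% at 15 min. It then ran from 0.995% at 30 min to 1.19% at 75 min and was 1.16% at 120 min. Between 180 and 225 min it lay between 0.696% and 0.771%. It was 1.19% at 240 min, 1.30% at 255 min and 0.737% at 285 min, and reached 1.84% at 345 min and 1.38% at 360 min. As a share of all reads, 345 min was thus the highest of the course, above 0 min, but of reads outside ribosomal protein genes the members held 2.07% at 345 min and 2.42% at 0 min, so this order turned with the denominator. Over windows the share was 1.07% ± 0.106 early, 0.883% ± 0.174 middle and 1.13% ± 0.354 late (SD, n = 8 libraries each), and 0.975% ± 0.184 in the 6 late libraries other than 345 and 360 min. The differences between windows were no larger than the spread inside the late window.

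**Figure D1:**
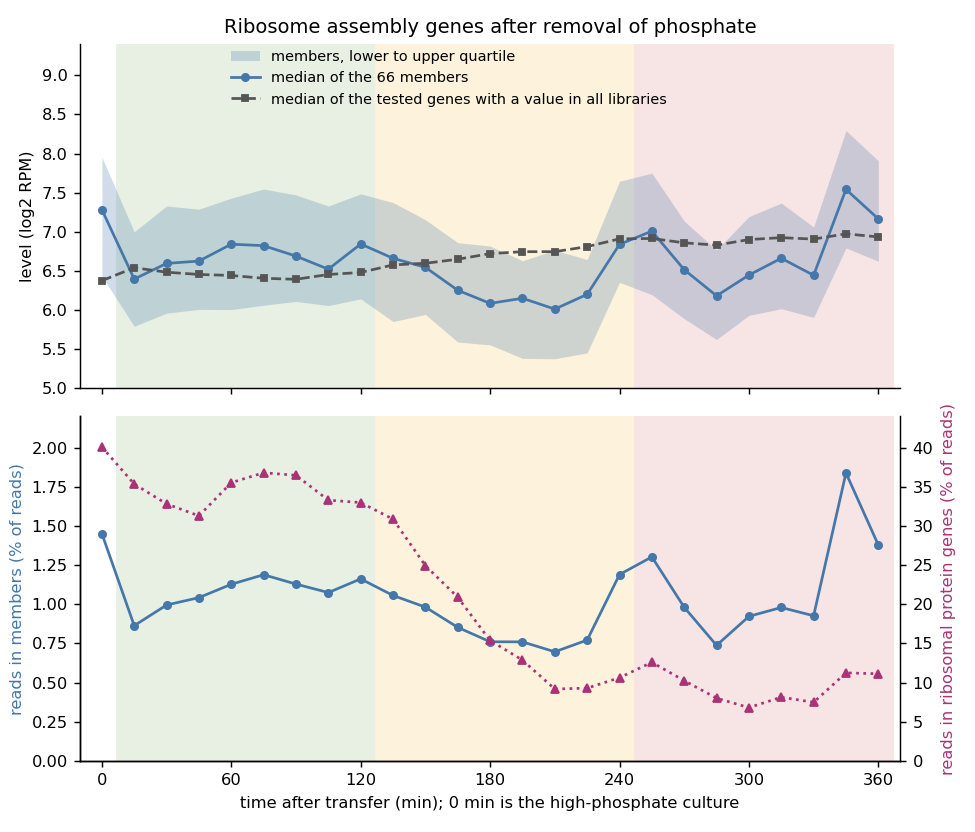
Level and share of the 66 ribosome assembly genes in each of the 25 libraries; top, median and quartiles of the members (log2 RPM) beside the median of the tested genes with a value in all libraries; bottom, percent of reads in the members (left axis) and in ribosomal protein genes (right axis). Shading marks the early, middle and late windows. The member median lies at 7.28 at 0 min, 6.01 at 210 min and 7.54 at 345 min. The share of ribosomal protein genes is 40.1% at 0 min, 9.17% at 210 min, 12.6% at 255 min, 6.80% at 300 min and 11.1% at 360 min.

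Genes of the ribosomal proteins, the structural parts of the same particle, took a different course over the windows. They held 40.1% of reads at 0 min, 34.3% ± 1.98 early, 16.7% ± 8.03 middle and 9.45% ± 2.11 late. Of 136 tested, 135 fell from early to late with a median of −1.93 (log2). At 345 min the assembly genes held their highest share of all reads, though not of reads outside ribosomal protein genes, and the ribosomal protein genes held 11.2%. The ribosomal protein share also rose where the members came back. It went from 9.17% at 210 min to 12.6% at 255 min, and from 7.47% at 330 min to 11.2% at 345 min. The loss of ribosomal protein reads moves with every RPM value here: the median tested gene was 0.28 (log2) higher in the middle than in the early window and 0.45 higher in the late one. Of reads outside ribosomal protein genes, the members held 1.64% ± 0.182 early, 1.08% ± 0.278 middle and 1.26% ± 0.416 late.

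The first library after the transfer was the lowest of the early window for many members. Of the 60 members with a value at both times, 57 were lower at 15 min than at 0 min, with a median of −0.93 (log2), a level 1.91-fold lower. A drop of at least 2-fold was seen for 26 of them, and for 3.59% of all 3401 genes with both values. Over the same step the median of all tested genes was 0.21 higher and that of ribosomal protein genes 0.20 lower (−0.20). NOP1, the gene of fibrillarin, which methylates rRNA within box C/D particles, had 8.81 log2 RPM at 0 min, 7.42 at 15 min and 8.16 at 30 min. UTP10, a very long subunit of UtpA, had 7.88, 6.51 and 7.35. NOP13, a nucleolar RNA-binding protein found in pre-60S particles, had 7.32, 6.01 and 6.21. The 15 min library was also the shallowest of the series and followed the wash, and with 1 library at each time these steps have no replicate check. UTP4, UTP15, ERB1, NOP9, SPB4 and RRP4 had no value in it, since at this depth 15 reads correspond to 33.3 RPM.

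Set against the whole early window, the high-phosphate library was still the higher one. The median member was 0.49 (log2) higher at 0 min than its early median, with single genes between −0.26 and 0.82, so no member differed by 2-fold in either direction, where 0.339% of tested genes were at least 2-fold higher and 2.18% at least 2-fold lower. At 0 min 48 of the 66 lay above all 8 early libraries, against 15.9% of tested genes, and 6 lay above all 24 libraries without phosphate, against 4.72%. The median difference over all tested genes was −0.07.

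**Figure D2:**
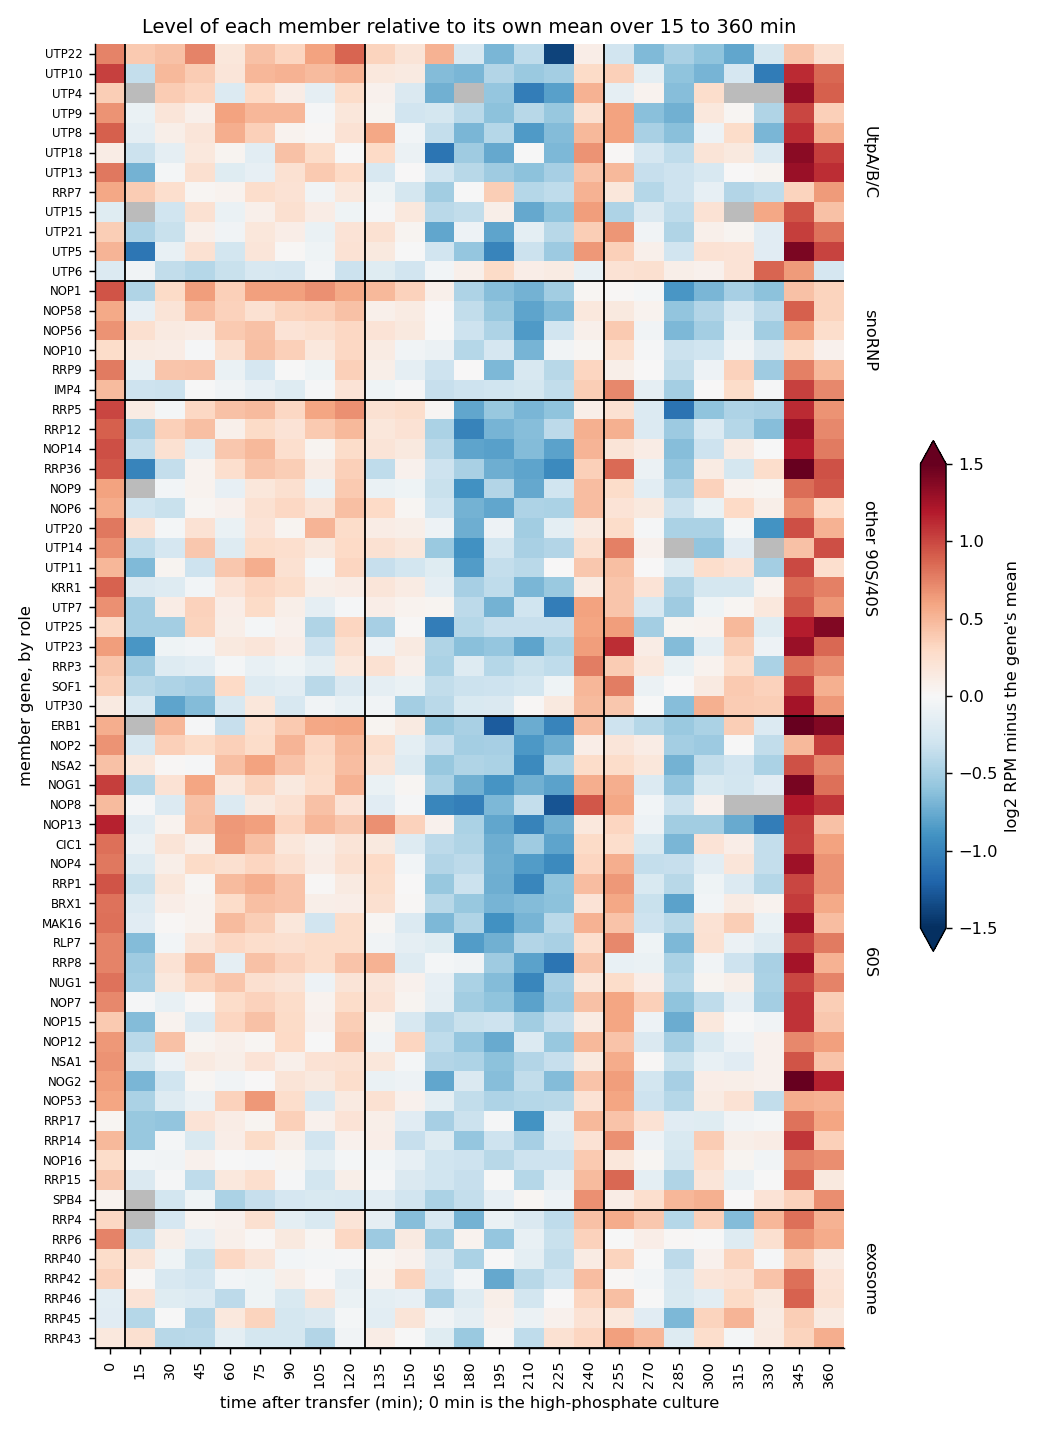
Level of each of the 66 members in each library, as log2 RPM minus the mean of that gene over 15 to 360 min, ordered by role and, within a role, by the middle minus early difference; grey marks libraries in which the gene had no value, and vertical lines divide 0 min and the windows. Blue columns stand at 165 to 225 min and at 285 min and red columns at 0, 240 to 255 and 345 to 360 min across most rows, with weaker contrast in the exosome subunits and in UTP6.

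Most of the members stood modestly lower in the middle than in the early window, among them core proteins of the snoRNA particles such as NOP1 and NOP58 and pre-60S factors such as NOP2 and NSA2. The median difference was −0.32 (log2), and 59 of 66 members were negative, where the median of all tested genes was 0.28. None passed the call of an adjusted p under 0.05 with a difference of at least 1 (log2) in limma, with Benjamini-Hochberg adjustment over all genes tested, against 2.81% of tested genes called lower and 4.51% called higher. At an adjusted p under 0.05 without the limit on size, 14 members were lower and 0 higher, against 7.81% and 48.2% of tested genes, and 25 were lower and 0 higher at an unadjusted p under 0.05, against 9.21% and 52.8%. The 14 were UTP22, UTP10, UTP9, NOP1, NOP58, NOP56, NOP10, RRP5, NOP2, NSA2, NOG1, CIC1, NOP4 and BRX1. Scaled to the reads outside ribosomal protein genes, the median member difference was −0.66 and 2 members, ERB1 and UTP22, passed the full call as lower, against 3.96% of tested genes.

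**Figure D3:**
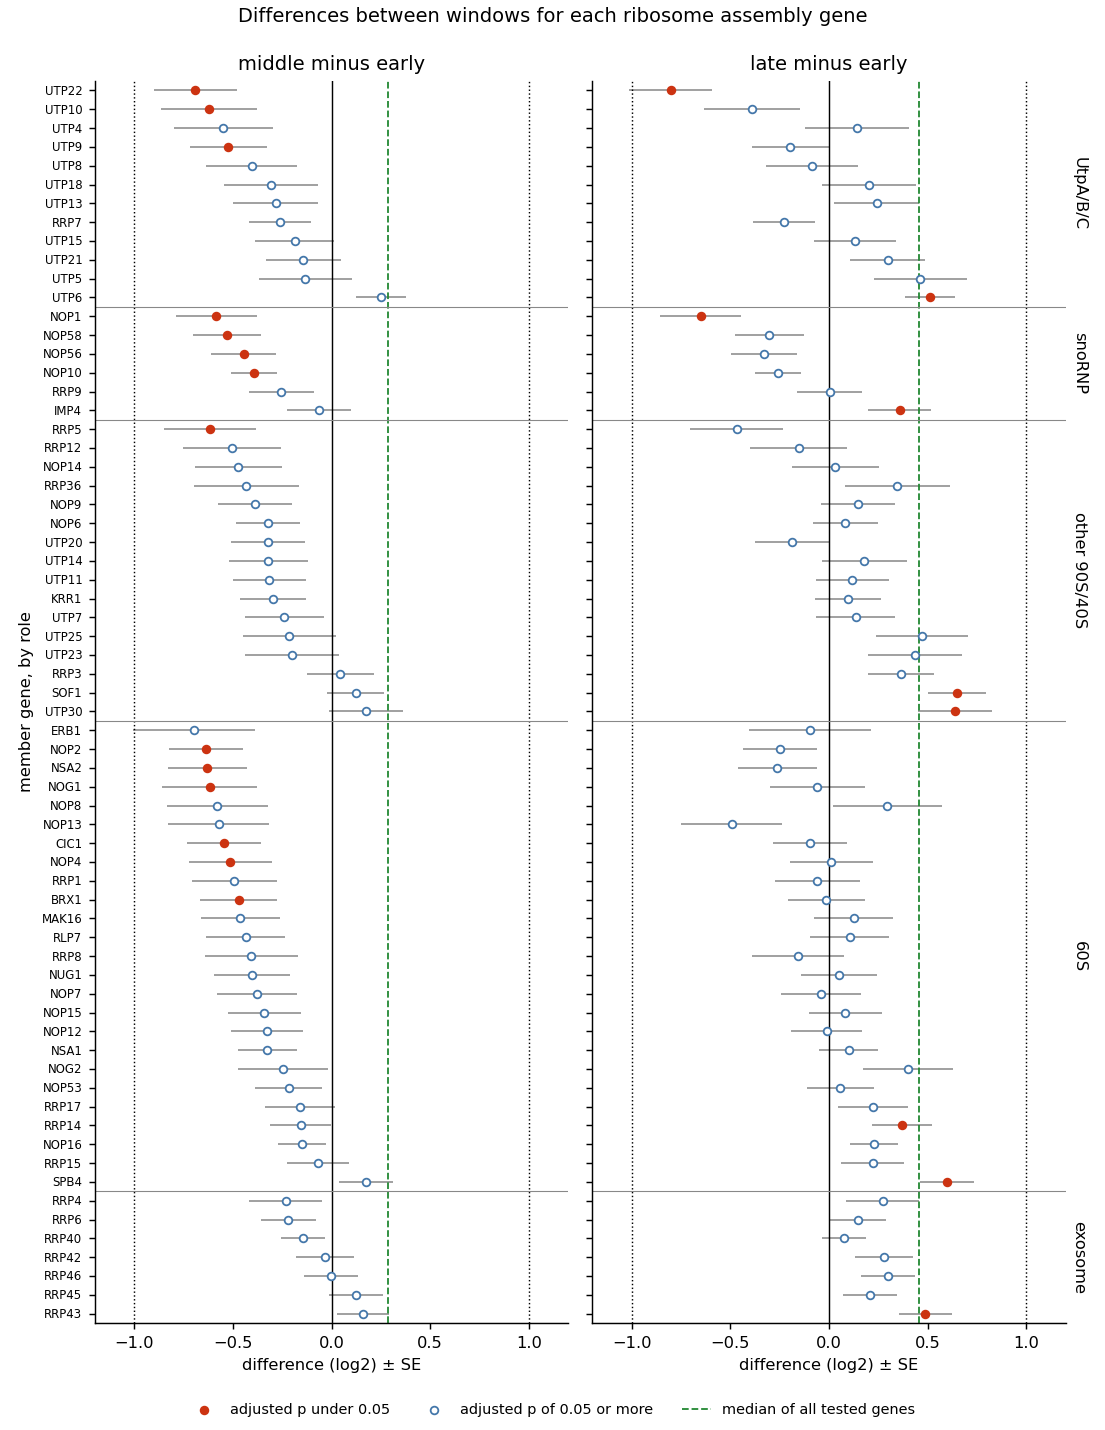
Difference of each member between the middle and early windows (left) and the late and early windows (right), in log2 with its SE from limma; filled points have an adjusted p under 0.05, dotted lines mark 2-fold and the dashed line is the median of all tested genes. On the left 59 of 66 points lie below 0, and on the right 23 of 66 do; no point passes the 2-fold lines.

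Among the 12 genes of the UtpA, UtpB and UtpC subcomplexes the median difference from early to middle was −0.30, and 11 were negative. UTP22, which belongs to UtpC together with RRP7, had a lowest, median and highest early level of 5.98, 6.24 and 6.68 log2 RPM, and of 4.41, 5.73 and 6.32 in the middle window. The ranges overlapped, with the middle libraries reaching lower. The difference was −0.69 (SE 0.21, limma adjusted p = 0.00724). UTP10 had 6.51, 7.34 and 7.38 early and 6.17, 6.38 and 7.14 in the middle window, and its difference was −0.62 (SE 0.24, adjusted p = 0.033). Its early window held 1 low library, that of 15 min. UTP4, another UtpA subunit, differed by −0.55 (SE 0.25, adjusted p = 0.068) over 7 values in each window. UTP6, a UtpB subunit, was the exception: its difference was 0.25 (SE 0.13, adjusted p = 0.0887), and its lowest, median and highest levels were 9.41, 9.56 and 9.80 early and 9.56, 9.86 and 10.13 middle. The deposited values of UTP6 gave whole reads, within 0.02, in 2 of 25 libraries, where 56 of the 66 members gave them in every library with a value. NOP58 gave them in 0 of 25, IMP4 in 11 of 25 and NOG2 in 18 of 25, and the other 6 of these 10 in 20 to 24. Whether all reads of UTP6 or of the others came from that gene alone was not tested, and this holds for each of their values here.

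The 6 genes of the snoRNA particles and the Mpp10 complex had a median of −0.42, and all 6 were negative. NOP1 had 7.42, 8.46 and 8.56 log2 RPM early and 7.16, 7.65 and 8.36 in the middle window, a difference of −0.59 (SE 0.21, adjusted p = 0.0185). NOP58, a core protein of the same box C/D particles, had 9.48, 9.94 and 10.06 early and 8.81, 9.42 and 9.76 middle, a difference of −0.53 (SE 0.17, adjusted p = 0.0116). In both genes the libraries from 180 to 225 min were the low ones, and those of 135 and 150 min were close to the early level. NOP10, a small protein of the box H/ACA particles that make pseudouridine, fell by 0.39 on the log2 scale (SE 0.12, adjusted p = 0.00605). IMP4, of the Mpp10 complex, differed by −0.06 (adjusted p = 0.745).

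Other factors of the 90S and pre-40S particles numbered 16, with a median of −0.32 and 13 negative. RRP5, which acts in the making of both subunits, had 6.70, 7.11 and 7.42 log2 RPM early and 5.95, 6.46 and 6.997 in the middle window, a difference of −0.62 (SE 0.24, adjusted p = 0.0288). RRP12, needed for export of both subunits, had 6.01, 6.82 and 6.98 early and 5.49, 6.06 and 7.03 middle, and its difference of −0.51 (SE 0.25) had an adjusted p of 0.0815. UTP20, a very large SSU processome protein, differed by −0.32 (SE 0.19, adjusted p = 0.141). RRP3, SOF1 and UTP30 were above 0 without passing the test.

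The 25 factors of the large subunit had a median of −0.41 with 24 negative. ERB1, which forms a complex with NOP7 needed for rRNA processing in early pre-60S particles, had the lowest difference of all members, −0.70 (SE 0.31), with an adjusted p of 0.056. It had 5.06, 5.79 and 5.99 log2 RPM early, over 7 values, and 4.16, 4.88 and 5.87 in the middle window. NOP2, a methyltransferase of the 25S rRNA, had 5.54, 6.11 and 6.29 early and 4.91, 5.36 and 6.04 middle, a difference of −0.64 (SE 0.19, adjusted p = 0.00556). NOP13 and NOP8, another pre-60S protein, stood at −0.57 (adjusted p = 0.0594) and −0.58 (adjusted p = 0.0568). SPB4, a helicase of the DEAD-box family, was the only one of the 25 above 0, at 0.17 (SE 0.14, adjusted p = 0.27).

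The 7 exosome subunits had a median of −0.03 and none passed the test without the size limit, with 0 at an unadjusted p under 0.05. RRP4, a cap subunit, had 5.33, 5.62 and 5.82 log2 RPM early, over 7 values, and 4.87, 5.35 and 6.02 middle, a difference of −0.23 (SE 0.19, adjusted p = 0.278). RRP6, the nuclear exonuclease of the complex, had 5.61, 6.02 and 6.28 early and 5.38, 5.74 and 6.31 middle, a difference of −0.22 (SE 0.14, adjusted p = 0.182). Whether exosome subunits differed from the other roles was not tested.

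The middle window mixed a decline and a return, which single libraries show. From 120 to 210 min 63 of 66 members were lower, with a median of −0.74 (log2), or 1.67-fold, and 24 were at least 2-fold lower, against 5.41% of 4341 genes. Ribosomal protein genes were 3.69-fold lower over the same span. Of the 58 members with a value in every library without phosphate, 38 had their lowest value between 165 and 225 min, against 10.7% of 3275 tested genes. From 225 to 240 min 65 of 66 members were then higher, with a median of 0.80, or 1.74-fold, and 20 were at least 2-fold higher, against 2.28% of 4336 genes. UTP6 was the exception. NOP8 had 4.12 log2 RPM at 225 min, 6.35 at 240 min and 5.99 at 255 min, and UTP22 had 4.41, 5.90 and 5.51. The median of all tested genes was 0.04 higher over this step and that of ribosomal protein genes 0.23 higher.

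This return did not last. From 255 to 285 min 62 of 65 members were lower, with a median of −0.84, and 19 were at least 2-fold lower, against 2.79% of 4192 genes. All 136 ribosomal protein genes were also lower over this span, with a median of −0.67. So were 83 of 86 other ribosome assembly genes, with a median of −0.82, while the median of all tested genes was −0.056. NOP1 had 7.89 log2 RPM at 255 min, 7.84 at 270 min and 6.99 at 285 min, its lowest value of the course. RRP5 had 6.95, 6.53 and 5.63. From 285 to 300 min 57 of 65 members were higher, with a median of 0.38, while 128 of 136 ribosomal protein genes were lower, with a median of −0.27.

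On the deposited scale the last libraries held the highest levels. From 330 to 345 min 62 of 63 members were higher, with a median of 1.14, or 2.21-fold, and 35 were at least 2-fold higher, against 4.64% of 3989 genes. UTP10 had 5.81 log2 RPM at 330 min, 7.97 at 345 min and 7.72 at 360 min. NOP13 had 5.12, 7.20 and 6.60. ERB1 had 5.20, 7.04 and 6.79, the last 2 above its 5.94 in high phosphate. UTP6 was again the exception, with 10.72, 10.49 and 9.59. All 136 ribosomal protein genes were higher over this step, with a median of 0.62, while the median of all tested genes was 0.02 higher. From 345 to 360 min 59 of 66 members were lower, with a median of −0.35 and none by 2-fold, where 0.64% of 4062 genes were at least 2-fold lower. Of the 58 complete members, 48 had their highest value at 345 min, against 14.9% of tested genes. The libraries from 315 to 345 min held 493480 to 516423 reads, among the fewest of the series, and the part of depth or of a single library in these steps was not tested.

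**Figure D4:**
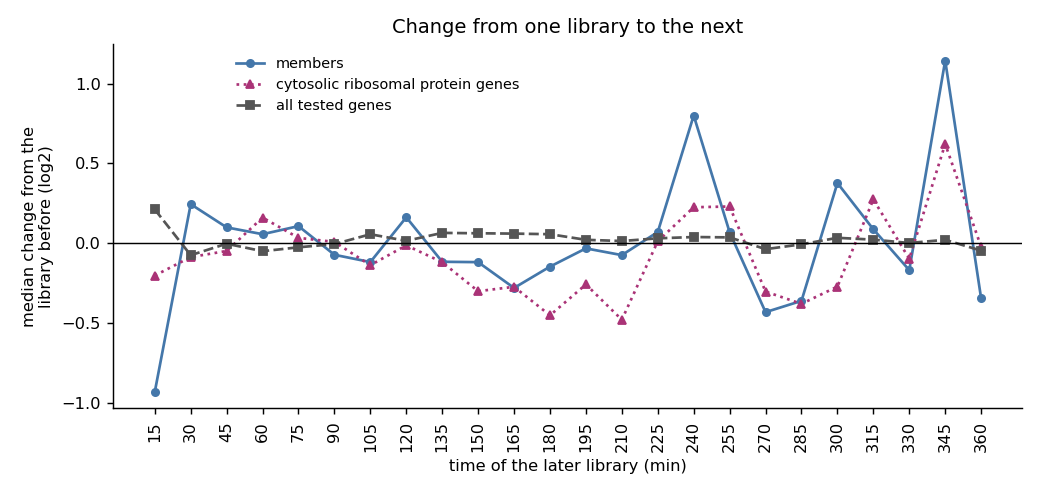
Median change from each library to the next (log2), for the 66 members, the ribosomal protein genes and all tested genes; the x axis gives the time of the later library. Members step down at 15 min (−0.93), up at 240 min (0.80), down at 270 and 285 min (−0.43 and −0.36) and up at 345 min (1.14), while the median tested gene stays between −0.07 and 0.21.

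Comparing late with early libraries therefore averaged over low and high stretches. The median member difference was 0.10 (log2) with 43 of 66 positive, beside a median of 0.45 over all tested genes. No member was called in either direction, against 3.41% of tested genes called lower and 13.8% called higher, while 2 were lower and 7 higher at an adjusted p under 0.05 without the size limit, against 7.32% and 63.8%, and 3 and 9 at an unadjusted p under 0.05, against 7.78% and 65.7%. The direction of the median depended on the scaling: it was −0.35 with each library centred on its median gene, −0.36 per reads outside ribosomal protein genes and −0.26 with a trimmed mean of M values. From middle to late 64 of 66 were positive, with a median of 0.39 against 0.18 for all tested genes, and 0 were called, against 0.714% called higher and 0.0921% called lower. Without the size limit 13 were higher and 0 lower, against 20.1% and 4.79%, and 39 were higher at an unadjusted p under 0.05, against 32.9%.

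UTP22 had the lowest late level relative to early. Its lowest, median and highest late levels were 5.02, 5.41 and 6.22 log2 RPM, where its lowest early level was 5.98, and the difference was −0.80 (SE 0.21, adjusted p = 0.0014). It passed the full call under all 3 other scalings, at −1.25, −1.27 and −1.17, and at −1.01 without the 345 and 360 min libraries. NOP1 had 6.99, 7.61 and 8.31 late and differed by −0.65 (SE 0.21, adjusted p = 0.00658), and it too passed the full call under the 3 other scalings, at −1.10, −1.11 and −1.02. UTP22 and NOP1 were the only members called lower there, in the same order against 4.35%, 4.4% and 4.17% of tested genes. NOP13 differed by −0.49 (SE 0.26, adjusted p = 0.0857), with late libraries from 5.12 to 7.20.

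SOF1, an SSU processome protein, UTP30, a relative of ribosomal protein L1 in pre-90S particles, and SPB4 stood highest. SOF1 had 6.20, 6.38 and 6.997 log2 RPM early and 6.60, 7.06 and 7.73 late, a difference of 0.65 (SE 0.15, adjusted p = 0.00028). UTP30 had 4.55, 5.10 and 5.52 early and 4.70, 5.73 and 6.59 late, a difference of 0.64 (SE 0.19, adjusted p = 0.00354). SPB4 had 5.44, 5.66 and 5.86 early, over 7 values, and 5.93, 6.21 and 6.61 late, a difference of 0.60 (SE 0.14, adjusted p = 0.000315), and its late libraries did not overlap the early ones. These differences are near the 0.45 by which the median gene was higher, and under the 3 other scalings they lay between 0.19 and 0.28 for SOF1, 0.18 and 0.27 for UTP30 and 0.14 and 0.22 for SPB4. UTP6 had 9.59, 10.05 and 10.72 late and differed by 0.51 (SE 0.13, adjusted p = 0.000704).

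Hours resolved the course further. Relative to hour 1, the median member stood at 0.20 in hour 2, −0.18 in hour 3, −0.25 in hour 4, 0.00 in hour 5 and 0.40 in hour 6 (log2), where the median tested gene stood at −0.04, 0.16, 0.34, 0.41 and 0.45. The direction in the last 2 hours depended on the scaling. With libraries centred on the median gene, scaled to reads outside ribosomal protein genes or by a trimmed mean of M values, the median was −0.40, −0.45 and −0.33 in hour 5 and −0.054, −0.050 and 0.073 in hour 6. No member was called in hours 2, 3 or 5, where 0.115%, 0.115% and 3.73% of tested genes were called lower and 0.161%, 1.73% and 13.1% higher. At an unadjusted p under 0.05 the counts in these hours were 0, 0 and 2 lower and 0, 0 and 5 higher, against 8.96%, 5.57% and 7.69% of tested genes lower and 3.32%, 25.5% and 53.8% higher. Under the 3 other scalings hour 5 had 2, 3 and 1 members called lower, UTP22 in each, RRP5 in the first 2 and NOP1 in the second, against 4.88%, 5.34% and 4.44% of tested genes. Without the size limit hour 5 had 1 lower and 5 higher, against 6.93% and 50% of tested genes.

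In hour 4 UTP22 was the 1 member called lower, against 3.57% of tested genes, and 0 were called higher, against 8.75%. Without the size limit 6 were lower and 2 higher, against 7.02% and 42.8%. Its hour 1 libraries had 6.19, 6.24, 6.55 and 5.98 log2 RPM and its hour 4 libraries 5.12, 5.42, 4.41 and 5.90. All 4 of the latter lay below the former. The difference was −1.03 (SE 0.25, limma adjusted p = 0.00145), just past the limit on size, and it was −0.93 without the 45 min library, −0.997 without that of 195 min and −0.76 without that of 225 min, so the call rested on each of these. It was also lost on a scale of log2(RPM + 10), at −0.85. With each library scaled to its reads other than those of ribosomal proteins, hour 4 had 13 members called lower, against 5.78% of tested genes, among them NOP58 (−1.12), NOP1 (−1.10) and RRP5 (−1.09).

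In hour 6 2 members were called higher, UTP30 and NOP8, against 15.7% of tested genes, and 0 lower, against 3.71%. Without the size limit 17 were higher and 0 lower, against 52.3% and 6.8%. UTP30 had 5.10, 4.55, 4.69 and 5.10 log2 RPM in hour 1 and 5.72, 5.71, 6.59 and 5.99 in hour 6, with no overlap. The difference was 1.14 (SE 0.23, adjusted p = 0.000103), and 0.95 without the 345 min library. NOP8 had 5.40, 5.21, 5.86 and 5.21 in hour 1, no value at 315 and 330 min, and 6.62 and 6.49 at 345 and 360 min. Its difference of 1.13 (SE 0.40, adjusted p = 0.0196) thus used 2 libraries of hour 6, and was 0.30 with the missing values set to the library floor. Both calls were lost under the 3 other scalings, where UTP30 lay between 0.69 and 0.82 and NOP8 between 0.66 and 0.81, and with log2(RPM + 10), at 0.93 and 0.97. Without the 345 min library no member was called in hour 6, and without that of 330 min 8 were. Leaving out the 15, 345 and 360 min libraries gave 2 calls in the other direction, NOP13 at −1.28 and UTP10 at −1.002. The shares of tested genes called with these libraries left out were not counted. Between hours 5 and 6 64 of 66 members were positive, with a median of 0.37, and 0 were called, where 0% of the 4340 genes with values in both hours were called in either direction. At an unadjusted p under 0.05, 14 members were higher, against 6.82% of genes.

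**Figure D5:**
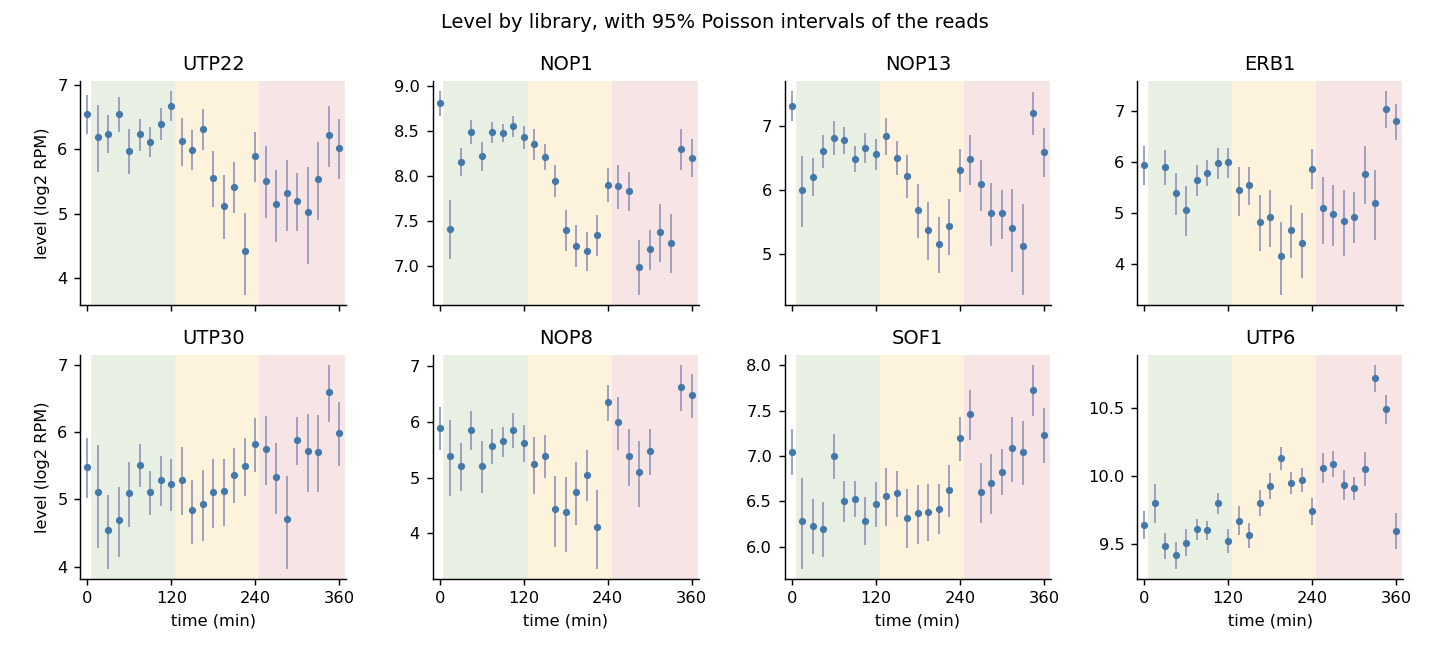
Level of 8 members in every library (points, log2 RPM) with 95% Poisson intervals of their reads, which cover counting error only; shading marks the windows. UTP22 is lowest at 225 min, NOP1 at 285 min, NOP13 at 330 min and ERB1 at 195 min. UTP30 and SOF1 are highest at 345 min, and UTP6 peaks at 330 min (10.72).

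A smooth course of time, a spline with 3 degrees of freedom, called 30 of 66 members at an adjusted p under 0.05 and a fitted range of at least 1 (log2), against 32.2% of tested genes. The widest fitted ranges were those of ERB1 (2.06), UTP4 (1.68), NOP8 (1.65) and RRP36 (1.65). Without the size limit 47 members passed, against 78.7%. Fewer members were called without the end of the course: 13 without the 345 min library, 19 without that of 360 min and 4 without both. The shares of tested genes called in these fits were not counted. Whether the drop is particular to the members was therefore not tested.

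A wider list of 96 other assembly genes, of which 90 were tested, gives the surroundings of these members. Its steps between single libraries were much like theirs. From 0 to 15 min 78 of 80 were lower, with a median of −0.95 (log2). From 225 to 240 min 86 of 89 were higher, with a median of 0.82, and from 330 to 345 min 84 of 84, with a median of 1.11. From early to middle 87 of the 90 were negative, with a median of −0.37. FPR4, a nucleolar proline isomerase, was called at −1.05 (SE 0.22, adjusted p = 0.000323). GAR1, the partner of NOP10 in box H/ACA particles, differed by −0.96 (SE 0.23, adjusted p = 0.000933), and CGR1, a pre-60S factor, by −0.88 (SE 0.24, adjusted p = 0.00361). TIF6, which keeps the subunits apart, and ESF1, an SSU processome factor, were the highest at 0.21 and 0.20, with adjusted p of 0.0934 and 0.0829. No gene of this list was called from early to late, where 5 were lower and 13 higher at an unadjusted p under 0.05, against 7.78% and 65.7% of tested genes.

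Of 18 regulators of these genes 14 were tested, and 8 were higher in the middle than in the early window at an adjusted p under 0.05 without the size limit, against 48.2% of tested genes. STB3, the repressor that binds RRPE, was 0.79 (log2) higher (SE 0.20, adjusted p = 0.0022) in the middle window and was called at 1.27 (SE 0.20, adjusted p = 4.58e-06) in the late one. It was the 1 regulator of 14 called higher from early to late, against 13.8% of tested genes. The median tested gene was itself 0.28 higher in the middle window and 0.45 higher in the late one. Values of the regulators under the other scalings are not given here. TOR1, a kinase that signals nutrient supply, was 0.62 (adjusted p = 0.000262) and 0.93 (adjusted p = 4.38e-07) higher in these windows. HMO1, an activator of rRNA and ribosomal protein genes, IFH1, a coactivator of ribosomal protein genes, and SCH9, a kinase downstream of TORC1, were the lowest of the list, at −0.06, −0.04 and 0.08 in the middle window, and none of these passed the test.

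Members with both motif cores had a median middle minus early difference of −0.40 (46 genes), those with the PAC core alone −0.27 (10 genes), those with the RRPE core alone −0.22 (7 genes) and the 3 without either 0.00. Among tested genes that are no members, the medians were −0.20 for the 246 with both cores, 0.26 and 0.18 for those with PAC or RRPE alone and 0.34 for the 2949 without either. The 246 include 66 of the other ribosome assembly genes, whose list of 90 had a median of −0.37. UTP22 had neither core in its window. These are descriptions across genes, with no test.

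Levels differed widely among members once divided by gene length. NOP10 was the most abundant per kilobase, at 11.98 (log2 of RPM per kilobase), followed by UTP6 at 9.48, and UTP20 and UTP4 were the least abundant, at 3.81 and 3.99. By role the medians of the same quantity were 8.51 for the snoRNA particle and Mpp10 genes, 6.60 for the large-subunit factors, 6.18 for the exosome, 5.75 for other 90S and pre-40S factors and 4.98 for UtpA, UtpB and UtpC. NOP10 is the shortest of these 4 genes, at 177 bases, and UTP20 the longest, at 7482 bases. Across the 66 genes the level per kilobase went down with length (Spearman's rho −0.725, a description over genes that share the same libraries, with length on both sides), more so than the level itself (rho −0.243). Only NOG2 overlapped another annotated gene, the snoRNA gene SNR191, by 274 bases on the same strand, and its reads may include that RNA.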

How the data were processed

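The submitters' processing notes name Bowtie and build R64; the sources used here do not give the counter, the annotation or the use of strand. The authors' deposited values were log2 RPM: 2 raised to them summed to 1000000 in each library. Reads and their Poisson intervals rest on taking the lowest value of each library as 15 reads. No other transformation was applied to the deposited values. In the main fits they were used as deposited, without a pseudocount. The members, roles and lists were chosen with earlier results of these data known.

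Genes with values in at least 20 of 24 libraries were tested with limma 3.58.1 in R 4.3.3 (trend and robust estimation, two-sided, Benjamini-Hochberg adjustment), calling adjusted p under 0.05 with a difference of at least 1 (log2). The same fit was checked on simulated data in which libraries were independent. That check cannot show whether neighbouring time points act as replicates. Members named were those called in a window or hour, the 2 lowest of each role (middle minus early), the 3 highest and 3 lowest (late minus early) and the 2 highest and lowest per kilobase; of each wider list, the 3 lowest and 2 highest. Other genes named were chosen after their values were seen. Promoters came from RefSeq coordinates of R64, whose gene starts are reading-frame starts. Alternatives covered scaling, a pseudocount, missing values, thresholds and left-out libraries.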

Additional observations from a re-analysis of the deposited data

Results flagged for a closer look

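For the 19 members described singly, values were checked for 1 library standing apart from the other 7 of its window. In all, 63 groups of values were checked and 8 stood out, where chance gives about 1 in 20 for independent groups. These groups shared libraries, and the members were chosen by their values here, so that rate is no reference for them.

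Of the 8 that stood out, 5 were low at 15 min within the early window. UTP10 had 6.51 log2 RPM there against 7.04 to 7.38 in the other early libraries, NOP1 7.42 against 8.16 to 8.56, NOP58 9.48 against 9.79 to 10.06, RRP12 6.01 against 6.57 to 6.98 and NOP2 5.54 against 6.05 to 6.29. SOF1 was high at 60 min, at 6.997 against 6.20 to 6.53. At 240 min SOF1 had 7.19 against 6.32 to 6.63 in the other middle libraries, and SPB4 had 6.60 against 5.44 to 5.95.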

How the results depend on the processing

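The early to middle median stayed negative under all settings tried and was −0.66 per reads outside ribosomal protein genes. In the order centring on the median gene, reads outside ribosomal protein genes and trimmed mean of M values, late minus early had 2, 2 and 2 calls (median −0.35, −0.36 and −0.26), middle minus early 2 (second only), hour 4 had 5, 13 and 2 calls (median −0.69 in the second), hour 5 had 2, 3 and 1 (median −0.40, −0.45 and −0.33) and hour 6 had 0, 0 and 0 (median −0.054 and −0.050 in the first 2). Without the 345 and 360 min libraries there was 1 call late minus early and 1 in hour 6 (median 0.028), the median of hour 6 minus hour 5 was −0.058 and the spline called 4; also without 15 min these were 1 (late minus early), −0.091 (hour 6 median), −0.058 and 4. Without the size limit the counts were 9 (late minus early), 14 (middle minus early), 13 (late minus middle), 8, 6 and 17 (hours 4 to 6) and 47 (spline). With log2(RPM + 10) hours 4 and 6 had 0 calls, and with missing values at the floor hour 6 had 1. Leaving out 1 library gave 0 to 1 calls late minus middle, 0 to 3 in hour 4, 0 to 1 in hour 5, 0 to 8 in hour 6 and 13 to 43 in the spline. Where no share of tested genes is given above for a setting, it was not counted, and those counts describe the members alone.

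Single members changed sign under the same 3 scalings in turn: UTP30 (−0.088, −0.16, −0.061), SOF1 (−0.14, −0.22, −0.11) and SPB4 (−0.10, −0.16, −0.078) middle minus early, UTP6 (−0.012, −0.085, the first 2), and NOP8 (−0.15, −0.16, −0.069), RRP4 (−0.19, −0.19, −0.11), RRP6 (−0.30, −0.32, −0.22) and UTP4 (−0.32, −0.31, −0.24) late minus early. Without the 15, 345 and 360 min libraries NOP8 was −0.081, RRP6 −0.053 and UTP4 −0.27, and without 345 and 360 min NOP8 was −0.060 and UTP4 −0.27; with 1 library left out UTP4 ran from −0.063 to 0.33 and ERB1 reached 0.0084. The share of reads was 1.64%, 1.08% and 1.26% outside ribosomal protein genes and 0.704%, 0.575% and 0.775% without the 4 most abundant members (early, middle, late; chosen after seeing the data). The cause of these shifts was not tested. No paired analysis was possible because each time point had 1 library of 1 course. Replicate numbers within a window only follow the order of time.

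With 1 library per time point the p-values treat neighbouring times as independent replicates of 1 course, and depth limits low members most in the shallow libraries: that of 15 min lacked 6 members and those of 315 and 330 min 3 each.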

Other observations

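The values listed for UTP6 differed from those of the other genes of its subcomplexes, but they gave whole reads in 2 of 25 libraries, and whether all of its reads came from this gene was not tested. Its level was 9.48 (log2 of RPM per kilobase), where the median of the 12 UtpA, UtpB and UtpC genes was 4.98. It was the 1 member lower at 240 than at 225 min and the 1 member lower at 345 than at 330 min, and no other annotated gene overlapped it.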
